A study of Mus musculus with 27 samples.

Results

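The 9 genes described here send, receive or answer the Hedgehog signal, and they were followed through mouse limb buds, other embryonic tissues and limb buds made from embryonic stem (ES) cells. The genes were taken by name, with earlier results of these data known. They are the ligand gene Shh, the receptor gene Ptch1, the signal transducer gene Smo, the co-receptor genes Boc and Gas1, the transcription factor genes Gli1, Gli2 and Gli3, and Hhip, which encodes a membrane protein that binds and holds back the ligand. All 9 were found among 23279 listed genes and passed the filter on low values. The ES–FLB and ES–HLB samples (limb buds of forelimb and hindlimb type) came from EB5 Hand2::GFP +/- mouse ES cells, a single line, grown as aggregates with BMP4 and Matrigel. ES–FLB aggregates were then given retinoic acid and ES–HLB aggregates a retinoic acid antagonist, and both received the BMP inhibitor LDN193189 and the Wnt protein Wnt3. Per the methods of the study, the medium of both also held hydrocortisone and methylcellulose in the later days of culture. The protocol in the labels names no Hedgehog ligand or agonist. On day 9 the Hand2::GFP-positive mesenchyme was sorted. The embryonic samples were untreated Slc:ICR tissues for which no sorting is named, namely early forelimb buds (FLBs) and hindlimb buds (HLBs), both labelled E10.0, FLBs and HLBs of E10.5, and, also of E10.5, tail bud (TB), branchial arch (BA) and cardiac tissue (Ca). A legend of the study places the early FLBs before the early HLBs, so that in the early limb buds limb type and age cannot be told apart. Each group had 3 libraries except the E10.5 HLBs, which had 2, because replicate 2 of that group holds no values on several chromosomes and lists Shh, Hhip and Smo at 0. The labels do not say whether replicates came from separate cultures or litters, so the p-values measure only the spread between these samples, which may be technical.

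Sonic hedgehog is made in the limb bud by the zone of polarizing activity (ZPA), a patch of posterior mesenchyme in which Hand2 acts upstream of Shh. The ligand binds Ptch1, which otherwise keeps Smo inactive, and Boc and Gas1 help the ligand to bind. Active Smo lets Gli2 and Gli3 proteins switch genes on, whereas without the signal Gli3 is cut to a repressor. Gli1, Ptch1 and Hhip are themselves switched on by the signal, and their transcripts are widely used as its readout.

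The Gli proteins bind DNA through 5 zinc fingers. Fingers 4 and 5, which make most of the contacts with the bases of the site, are shown because the 3 genes share them although their transcripts behaved differently. The 165 coding bases each were read from GENCODE transcripts on GRCm38, from coding base 1006 of Gli1, 1543 of Gli2 and 1732 of Gli3, and capitals mark the codons of the cysteines and histidines that hold the zinc.
Gli1: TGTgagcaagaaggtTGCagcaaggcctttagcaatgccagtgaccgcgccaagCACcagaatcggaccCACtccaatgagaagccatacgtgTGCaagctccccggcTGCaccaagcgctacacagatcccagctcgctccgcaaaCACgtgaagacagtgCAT
Gli2: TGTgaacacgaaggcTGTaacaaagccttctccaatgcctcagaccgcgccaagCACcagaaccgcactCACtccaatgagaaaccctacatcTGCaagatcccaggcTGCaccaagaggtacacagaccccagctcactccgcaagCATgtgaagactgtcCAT
Gli3: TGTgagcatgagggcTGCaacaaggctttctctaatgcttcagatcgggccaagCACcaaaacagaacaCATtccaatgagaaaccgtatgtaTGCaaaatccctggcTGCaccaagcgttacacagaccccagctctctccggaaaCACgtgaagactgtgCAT
Over the 453 bases of all 5 fingers, Gli1 shared 369 bases with Gli2 (81.5%) and 344 with Gli3 (75.9%), and Gli2 shared 366 with Gli3 (80.8%).

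Ptch1 and Hhip, which lie on different chromosomes, both rose from early to E10.5 limb buds, so the stretch before a start site of each is shown as well. RefSeq start-site windows were matched for 6 of the 9 genes, Ptch1, Hhip, Smo, Gas1, Gli2 and Gli3. The 250 bases before the start site of each window (GRCm38.p6) lie at chr13:63565736-63565985 for Ptch1 and chr8:80058009-80058258 for Hhip, both on the minus strand. The Ptch1 stretch lies inside the listed span of its gene, which ends at 63573460, so it does not precede the outermost start. The Hhip stretch overlaps the listed span of its gene, which ends at 80058060. Both stretches are written 5′ to 3′ on the minus strand, with no capitals because the motif searched was not found.
Ptch1: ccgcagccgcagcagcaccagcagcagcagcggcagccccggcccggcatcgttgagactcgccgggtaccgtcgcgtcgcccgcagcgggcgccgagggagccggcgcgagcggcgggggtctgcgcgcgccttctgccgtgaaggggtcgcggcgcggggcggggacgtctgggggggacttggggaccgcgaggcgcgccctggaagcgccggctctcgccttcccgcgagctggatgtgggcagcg
Hhip: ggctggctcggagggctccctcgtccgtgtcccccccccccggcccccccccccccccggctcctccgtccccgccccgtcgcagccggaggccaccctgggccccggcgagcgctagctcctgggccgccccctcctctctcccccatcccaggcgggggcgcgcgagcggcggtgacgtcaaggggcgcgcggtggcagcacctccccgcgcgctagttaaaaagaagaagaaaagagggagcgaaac
The letters GACCACCCA, or TGGGTGGTC on the other strand, a core bound by Gli proteins, occurred in 83 of 32851 RefSeq windows (0.253%), and 2214 windows (6.74%) held them with at most 1 mismatch. None of the 6 windows of these genes did, which says only that the letters are not in these windows. The windows held many CG pairs, 47 in Ptch1 and 30 in Hhip against a median of 7 over all windows.

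Levels are given as CPM (counts per 1000000 reads on genes), after the libraries had been scaled to each other. Depth, read from the spacing of the low values, was 19642244 to 22142302 reads in the early limb buds and 5543756 to 8541931 in the other groups, so that 3 reads, the upper limit that a count of 0 allows, were worth 0.135 to 0.541 CPM. Depth and stage went together in the limb buds and cannot be told apart. The ES–LB libraries were also shallower than those of the early limb buds, so depth and source cannot be told apart in that comparison. The labels of limb type held, with the forelimb gene Tbx5 at 67.1 CPM or more in every forelimb library and at most 4.07 in every hindlimb library. The hindlimb genes Tbx4 and Pitx1 summed to at least 119.6 CPM in the hindlimb and at most 13.3 CPM in the forelimb libraries. The 6 limb mesenchyme markers summed to 1165 to 1621 CPM in limb buds and 1877 to 1958 CPM in ES–LBs. The sum hides opposite changes against early limb buds. Pdgfra, Twist1 and Hand2, by whose reporter the cells were sorted, were called higher in both ES–LBs, and Prrx1 in ES–HLBs alone. Prrx2 and Fgf10 were called lower in both. Blood, vessel and surface markers were lower in ES–LBs. The 4 erythroid markers summed to 2209 to 6475 CPM in limb buds, 5.10 to 7.81 in ES–FLBs and 82.5 to 155 in ES–HLBs, and the 5 endothelial markers to 254 to 360 CPM in limb buds and 23.1 to 39.3 in ES–LBs. The 7 surface ectoderm markers summed to 261 to 454 CPM in limb buds, 103 to 154 in ES–FLBs and 190 to 202 in ES–HLBs. The 5 neural tube markers summed to more in ES–LBs, at 9.11 to 12.6 CPM in ES–FLBs and 22.0 to 27.8 in ES–HLBs. In limb buds the sum was at most 0.826 CPM. Pax6 and Olig2 were worth 3 reads or fewer in every ES–LB library. Against early limb buds, Sox1 and Sox2 were called higher in both ES–LBs, and Olig2 and Neurog2 in ES–HLBs alone. The part of all these markers in the results was not tested, and in such tissue samples fewer cells of a type and less RNA per cell cannot be told apart.

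Shh, on chromosome 5 (28456840–28467101, GRCm38), covered the widest range of the 9 genes between groups. It was highest in TB, at 26.1, 22.8 and 28.4 CPM (25.7 ± 2.81, mean ± s.d., n = 3). In E10.5 FLBs it stood at 11.9, 12.4 and 11.4 CPM (11.9 ± 0.470), in E10.5 HLBs at 13.6 and 8.47 CPM and in BA at 8.99, 9.29 and 12.3 CPM. These 3 groups overlapped and lay below every TB library. All remaining groups were lower still. Shh was 1.95, 2.21 and 5.34 CPM in ES–FLBs, or 16, 17 and 44 reads, and 1.40, 0.985 and 1.55 CPM in ES–HLBs, or 11, 7 and 13 reads. Early HLBs had 3.72, 1.21 and 2.15 CPM, Ca 0.781, 0.561 and 1.91 CPM, and early FLBs 1.13, 0.507 and 0.104 CPM, the last being 2 reads and below the limit of 3. Each of these 5 low groups overlapped its neighbour in the order ES–FLB, early HLB, ES–HLB, Ca, early FLB. The exons of Shh share 807 bases with annotated genes on the opposite strand, and since the strand setting of the counting is not given in the sources used here, reads from both cannot be told apart there.

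The receptor and the 2 other readout genes did not follow the order of Shh. Ptch1 (chromosome 13, 63508328–63573460) was highest in TB, at 163, 152 and 172 CPM (162 ± 10.04, mean ± s.d., n = 3), ES–FLBs, at 133, 139 and 163 CPM (145 ± 15.9), and BA, at 117, 140.2 and 139 CPM (132 ± 12.9), with each group overlapping the next. A second set followed without reaching these values, with E10.5 HLBs at 71.9 and 83.3 CPM, E10.5 FLBs at 69.3, 73.0 and 69.6 CPM, and ES–HLBs at 68.7, 61.1 and 72.7 CPM. The lowest libraries were those of early HLBs (51.3, 38.3 and 44.6 CPM), Ca (34.8, 36.1 and 41.6 CPM) and early FLBs (32.1, 28.1 and 28.0 CPM). ES–FLBs thus stood with the strongest embryonic sources of Ptch1, whereas the Shh of these sorted cells lay with the weakest. Shh of the cells removed by the sort was not measured.

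Gli1 and Hhip put ES–FLBs above every embryonic tissue measured. Gli1 (chromosome 10, 127329882–127341579) was 144, 142 and 152 CPM in ES–FLBs (146 ± 5.04, n = 3), and the highest of the 20 embryonic libraries, a BA library, had 88.1 CPM. BA (68.8, 71.9 and 88.1 CPM), TB (78.1, 63.4 and 68.1 CPM) and ES–HLBs (58.9, 69.9 and 70.7 CPM) overlapped in turn. Below them stood E10.5 HLBs (50.3 and 49.6 CPM) and E10.5 FLBs (47.9, 50.4 and 50.5 CPM), which overlapped. Early HLBs spread from 16.9 to 39.6 CPM, Ca from 5.34 to 10.8 CPM and early FLBs from 3.45 to 4.69 CPM, with no overlap among the 3 groups. Hhip (chromosome 8, 79965850–80058060) was 23.5, 28.1 and 31.7 CPM in ES–FLBs (27.8 ± 4.12), 16.3, 17.0 and 20.5 CPM in TB, and 11.2 to 12.98 CPM in ES–HLBs. ES–HLBs overlapped BA (10.3 to 12.3 CPM), and all limb buds lay lower, with E10.5 FLBs at 6.81, 5.95 and 6.25 CPM, E10.5 HLBs at 3.81 and 5.47 CPM, early HLBs at 1.49 to 2.23 CPM and early FLBs at 0.963 to 1.93 CPM. In Ca the 3 libraries spread from 0.391 to 3.55 CPM. The exons of Gli1 share 327 bases and those of Hhip 175 bases with other annotated genes.

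**Figure D1:**
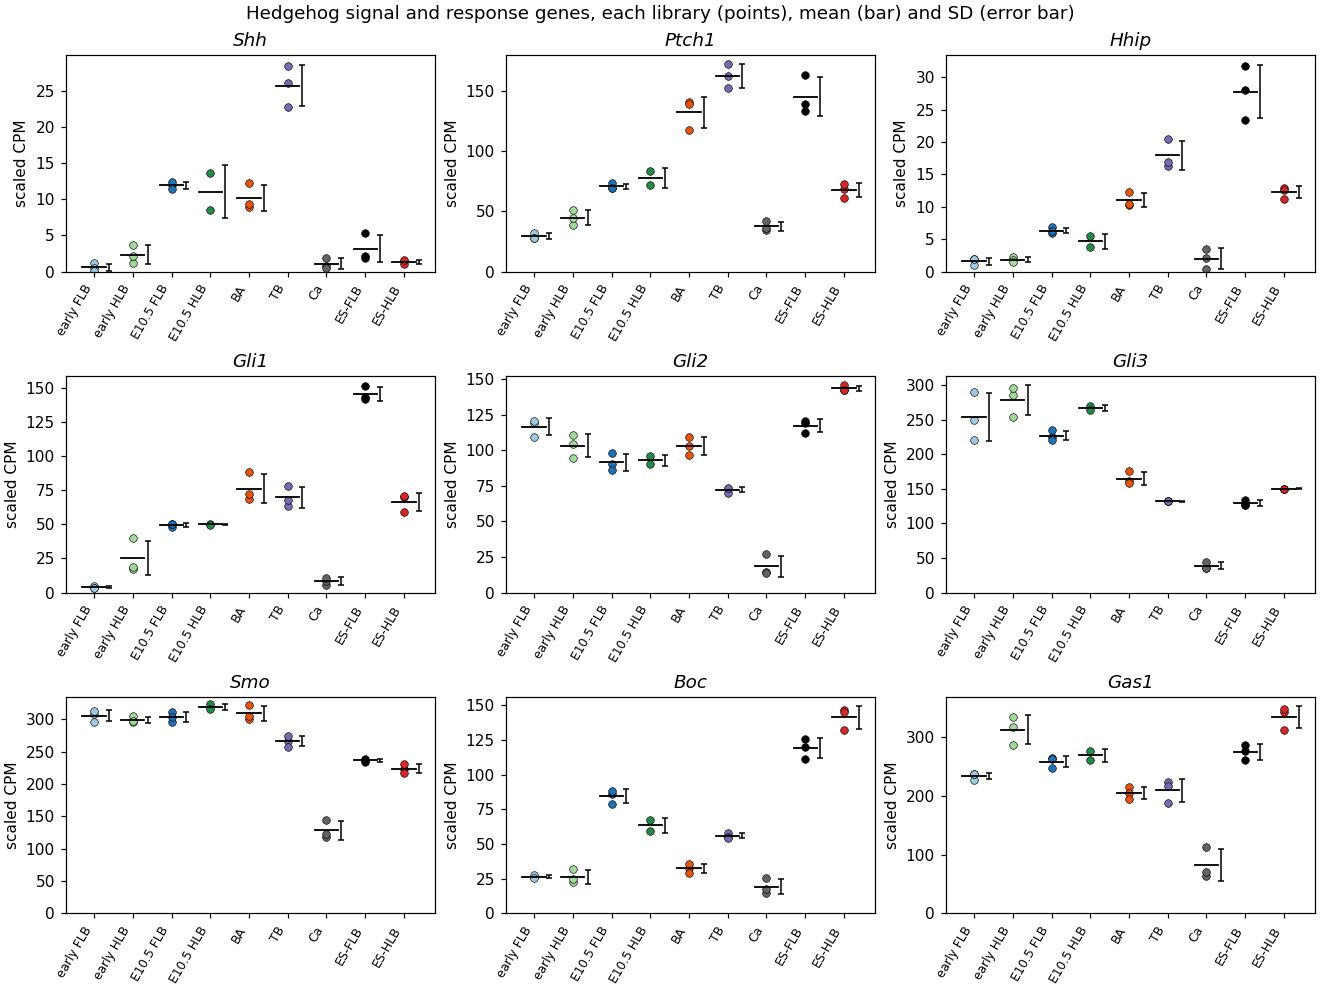
Scaled CPM (vertical axes, linear from 0) of the 9 genes in each of 26 libraries, grouped by tissue, with points for libraries, lines for group means and error bars for the s.d. Shh is highest in the tail bud, Gli1 and Hhip are highest in the ES–FLBs, and Gli2, Gli3, Smo and Gas1 stay within 2.16-fold among the 8 groups other than cardiac tissue.

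The width of the range differed between genes and for some of them depended on Ca. Between the highest and the lowest group the ratio was 44.3 for Shh, 37.6 for Gli1, 17.3 for Hhip and 5.52 for Ptch1, in each case with early FLBs as the lowest group. The ratio for Shh rests on an early FLB mean of 0.582 CPM that includes a library of 2 reads. For Gli2, Gli3, Smo, Boc and Gas1 the ratio was 7.84, 7.19, 2.49, 7.32 and 4.05, in each case with Ca as the lowest group. Without Ca it was 1.99 for Gli2, 2.16 for Gli3, 1.43 for Smo and 1.64 for Gas1, and 5.36 for Boc. Smo (chromosome 6, 29735497–29761366) was 128 ± 14.4 CPM in Ca, and its means ran from 224 ± 7.37 CPM in ES–HLBs to 319.7 ± 4.66 CPM in E10.5 HLBs in the other groups. Gli3 (chromosome 13, 15463723–15730026) was highest in limb buds, at 279 ± 21.5 CPM in early HLBs, 268 ± 4.39 in E10.5 HLBs, 254 ± 34.5 in early FLBs and 227 ± 7.06 in E10.5 FLBs, and lower in ES–HLBs (150.2 ± 0.566) and ES–FLBs (129 ± 4.44). Gli2 (chromosome 1, 118834061–119054405) was highest in ES–HLBs, at 143, 146 and 143 CPM, above every other library. Boc (chromosome 16, 44485045–44558870) was also highest in ES–HLBs (147, 132 and 145 CPM) and ES–FLBs (125, 111 and 119.9 CPM), which did not overlap each other or any embryonic group. Gas1 (chromosome 13, 60174405–60177535) was 335 ± 19.2 CPM in ES–HLBs and 313 ± 24.6 in early HLBs, which overlapped, and 275 ± 13.04 in ES–FLBs. The exons of Gas1 share 589 bases with another annotated gene.

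Per kilobase of the longest transcript, the order of the 3 Gli genes differed between groups. In early FLBs Gli3 stood at 31.1 CPM per kb, Gli2 at 17.5 and Gli1 at 0.956. In E10.5 FLBs the same genes stood at 27.8, 13.8 and 12.2 CPM per kb. In ES–FLBs Gli1 was first, at 35.9 ± 1.24 CPM per kb, before Gli2 at 17.7 ± 0.666 and Gli3 at 15.8 ± 0.543 (n = 3). In ES–HLBs Gli1 was last, at 16.4 ± 1.62 after Gli2 at 21.6 and Gli3 at 18.4, and in TB Gli1 stood at 17.2 ± 1.85, Gli3 at 16.2 and Gli2 at 10.9. Smo, at 62.6 to 80.9, and Gas1, at 79.1 to 92.9, were the most abundant of the 9 in FLBs and ES–FLBs on this scale. In ES–HLBs Smo stood at 59.2 and Gas1 at 113, and in TB they stood at 70.4 and 70.8. Shh reached 0.204 in early FLBs, 4.19 in E10.5 FLBs and 1.11 in ES–FLBs.

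The first comparison asked how the genes change as the limb bud grows. All tests came from limma on log2(CPM + 0.5), with adjusted p-values over 14432 genes and a threshold of 0.05, and fold changes are on that scale, which understates those of low genes. From early to E10.5 FLBs, Shh, Ptch1, Hhip, Gli1 and Boc rose and none of the 9 genes fell, where 59.3% of all genes passed in either direction and 27% rose. Shh rose by 3.64 (adjusted p = 3.75e-08), Gli1 by 3.53 (6.94e-10), Hhip by 1.74 (0.000204), Boc by 1.65 (1.53e-09) and Ptch1 by 1.25 (6.53e-11). In early FLBs no library reached the lowest E10.5 FLB library in any of these 5 genes. Gli2, Gas1 and Smo did not pass, with differences of −0.35, 0.14 and −0.01. Gli3 did not pass either (−0.15, adjusted p = 0.0907) but did so without early FLB replicate 3 (−0.25, 0.00538). Smo was called higher (0.18) when CPM were used as deposited, without scaling between libraries.

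The same 5 genes rose from early to E10.5 HLBs, where 29.3% of all genes passed and 12.1% rose. The changes were 2.07 for Shh (adjusted p = 0.000769), 1.26 for Boc (2.82e-06), 1.12 for Hhip (0.0336), 1.08 for Gli1 (0.00672) and 0.79 for Ptch1 (5.96e-06). The call of Hhip depended on single libraries, since leaving out early HLB replicate 2 or 3 or E10.5 HLB replicate 1 or 3 gave differences of 0.89 to 1.36 with adjusted p of 0.0592 to 0.228, and a pseudocount of 0.1 ended it as well. Gli1 lost its call when only the groups compared were fitted (adjusted p = 0.168). Early HLB replicate 1 was the highest of its group in Shh, Ptch1, Gli1 and Hhip.

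The rise of Gli1 was smaller in HLBs than in FLBs. The difference between the changes, tested as an interaction, was −2.45 for Gli1 (adjusted p = 0.000156) and −0.46 for Ptch1 (0.0294), 2 of 9 genes where 21% of all genes passed and 9.6% were lower, so that the count was near that of all genes. Hhip gave −0.62 and did not pass (0.444). The value for Ptch1 lost its call without early FLB replicate 2 or 3, early HLB replicate 1, E10.5 FLB replicate 2 or E10.5 HLB replicate 1 (−0.43 to −0.35, adjusted p = 0.0596 to 0.176), and with neither variance trend nor robust moderation. For Shh the difference was −1.56 (adjusted p = 0.0546), which passed without early FLB replicate 1 (−1.92) or early HLB replicate 2 (−1.89). Type and age cannot be told apart here either.

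Early HLBs stood above early FLBs in Shh, Ptch1, Gli1 and Gas1, 4 of 9 genes where 18.8% of all genes passed and 8.27% were higher. Gli1 was higher by 2.46 (adjusted p = 1.08e-06), Shh by 1.42 (0.00988), Ptch1 by 0.59 (9.8e-05) and Gas1 by 0.42 (0.0440). Every early HLB library exceeded every early FLB library in these 4 genes. Shh lost its call without early FLB replicate 3 (1.06, adjusted p = 0.0670) or early HLB replicate 1 (1.09, 0.0687), and the count then fell to 2. It also lost it when only the groups compared were fitted (adjusted p = 0.0610). Gas1 lost it when any of the 6 libraries was left out (adjusted p = 0.0542 to 0.143). Gli3 passed without early FLB replicate 1 only (0.24, adjusted p = 0.0223).

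By E10.5 no difference between HLBs and FLBs passed for any of the 9 genes by limma, although 21.3% of all genes did. At an unadjusted p under 0.05 by limma there were 2. Gli3 stood 0.23 higher in HLBs (adjusted p = 0.0517) and Boc differed by −0.41 (adjusted p = 0.0617). The levels of Gli1 differed by 0.01 with an interval of −0.57 to 0.60, and those of Shh by −0.14 with an interval of −1.02 to 0.74, so differences of about 2-fold in Shh were not detectable with these libraries.

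**Figure D2:**
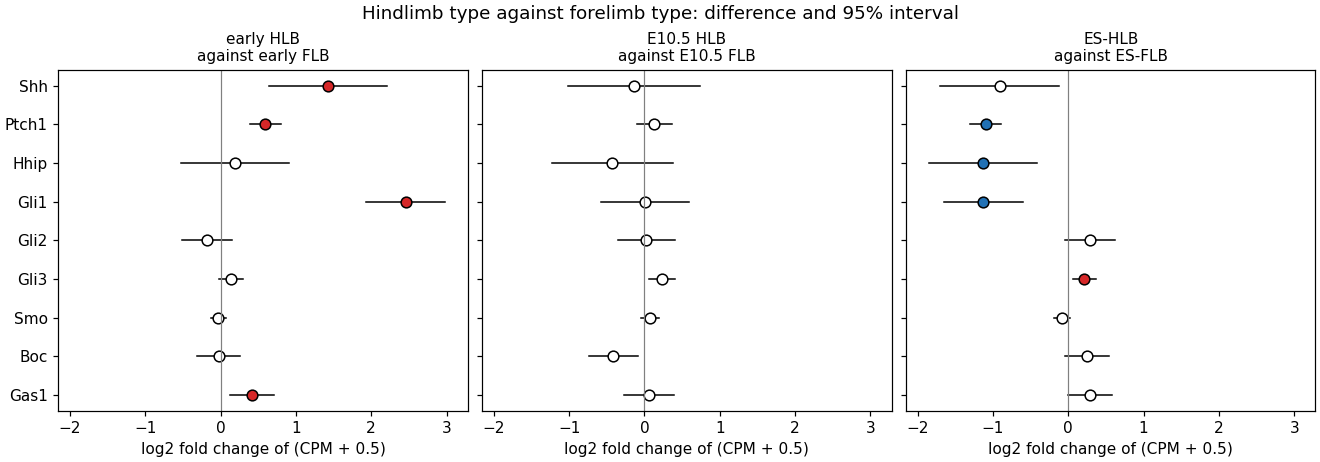
Difference between hindlimb and forelimb buds (horizontal axes, log2 of scaled CPM + 0.5, HLB minus FLB) for the 9 genes in early limb buds, E10.5 limb buds and ES–LBs, with points for the fitted difference and bars for its 95% interval. Red points passed as higher in hindlimb, blue as lower and white points did not pass; Gli1 and Ptch1 are red in early limb buds, white at E10.5 and blue in ES–LBs.

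In ES–LBs, Gli1 and Ptch1 differed between the limb types in the direction opposite to that in early limb buds. Limb type and treatment cannot be told apart here, as ES–FLBs were given retinoic acid and ES–HLBs its antagonist. Ptch1, Hhip and Gli1 were lower in ES–HLBs than in ES–FLBs, 3 of 9 genes where 9.04% of all genes were lower, and Gli3 was higher, where 10.6% were higher and 19.7% passed in either direction. Gli1 differed by −1.13 (adjusted p = 0.00309), Hhip by −1.14 (0.0234) and Ptch1 by −1.10 (8.3e-09), and no ES–HLB library reached the lowest ES–FLB library in any of the 3. Gli3 was higher by 0.21 (0.0493). The calls of Hhip and Gli3 lay near the threshold. That of Hhip was lost without any 1 of the libraries other than ES–FLB replicate 1 (−1.18 to −1.04, adjusted p = 0.0520 to 0.0831) and with a pseudocount of 0.1 (0.0932). That of Gli3 was lost without any 1 of the 6 (0.20 to 0.24, 0.0582 to 0.138), with a pseudocount of 0.1 (0.0534), with CPM as deposited (0.0623), with no filter (0.0679) and with neither variance trend nor robust moderation (0.0958). Shh differed by −0.91 with an interval of −1.70 to −0.13, which did not pass after adjustment (0.0995). Beside these differences, 4 of 7 surface ectoderm, 3 of 4 erythroid, 4 of 5 endothelial and 1 of 5 neural tube markers (Sox2) were higher and none of them lower in ES–HLBs than in ES–FLBs, and their part in the differences was not tested.

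Whether limb type differed otherwise in cultured than in early embryonic limb buds was tested as an interaction of limb type and source. It passed for Gli1 (−3.59, interval −4.33 to −2.85, adjusted p = 7.96e-07), Shh (−2.34, −3.45 to −1.23, 0.00325) and Ptch1 (−1.69, 3.32e-09), 3 of 9 genes where 19.9% of all genes passed and 8.65% were lower. All 3 calls held when any 1 library of the 4 groups was left out. Hhip gave −1.33, which did not pass (adjusted p = 0.0624). Limb type cannot be told apart from age in the early limb buds, or from retinoic acid or its antagonist in culture.

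The next comparisons asked how far the ES–LBs matched the limb buds. Against early FLBs, ES–FLBs were higher in Shh, Ptch1, Hhip, Gli1 and Boc and lower in Gli3 and Smo, so that 7 of 9 passed beside 76.9% of all genes (38.3% higher and 38.7% lower). Gli1 stood 5.07 higher (SE 0.25, adjusted p = 9.28e-13), Hhip 3.78 (3.2e-09), Ptch1 2.28 (9.99e-17), Boc 2.14 (6.6e-12) and Shh 1.76 (0.00025). Gli3 differed by −0.96 (8.85e-12) and Smo by −0.37 (8.83e-08). Gli2 differed by 0.01 with an interval of −0.32 to 0.35.

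Against E10.5 FLBs the transcripts of the ligand and of its readout parted. In ES–FLBs they were measured in the sorted mesenchyme alone, so Shh of the cells removed by the sort is not included. Shh was lower in ES–FLBs by 1.88 on the log2 scale (−1.88, adjusted p = 0.000166), whereas Hhip was higher by 2.04 (2.72e-05), Gli1 by 1.55 (2.43e-05), Ptch1 by 1.03 (1.6e-09) and Boc by 0.49 (0.00364). Gli3 (−0.81, 5.67e-10) and Smo (−0.36, 2.18e-07) were lower, so that 7 of 9 genes passed beside 68.7% of all genes (34.1% higher and 34.5% lower). The Shh libraries of the ES–FLBs, at 1.95 to 5.34 CPM, all lay below those of the E10.5 FLBs, at 11.4 to 12.4 CPM, while for Gli1 the order was 142 to 152 CPM above 47.9 to 50.5 CPM. Gli2 stood 0.36 higher and did not pass (adjusted p = 0.0536), but did so under 8 alternatives.

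In ES–HLBs Shh was lower too. Against E10.5 HLBs, Shh (−2.65, adjusted p = 1.07e-05), Gli3 (−0.83) and Smo (−0.51) were lower and Hhip (1.33, 0.00463), Boc (1.15, 1.15e-06) and Gli2 (0.62, 0.00461) higher, 6 of 9 genes beside 68.5% of all genes (34.5% higher and 34% lower). Gli1 (0.40, interval −0.18 to 0.99) and Ptch1 (−0.20, interval −0.43 to 0.03) did not pass. All 3 ES–HLB libraries lay above both E10.5 HLB libraries in Gli1, which was called higher when only the groups compared were fitted (adjusted p = 4.79e-05). Ptch1 was called lower under that same setting by limma (−0.20, adjusted p = 0.0260) and with the left-out library kept (−0.22, 0.0468). Hhip lost its call without E10.5 HLB replicate 1 (1.10, adjusted p = 0.0634). Against early HLBs, Hhip (2.45, 1.98e-06), Boc (2.41, 1e-12), Gli1 (1.49, 2.96e-05), Ptch1 (0.59, 7.89e-06) and Gli2 (0.48, 0.0111) were higher and Gli3 (−0.89) and Smo (−0.42) lower, beside 75.2% of all genes (37.5% higher and 37.7% lower). Shh did not pass (−0.57, 0.174) but did so without early HLB replicate 2 (−0.90, adjusted p = 0.0461).

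**Figure D3:**
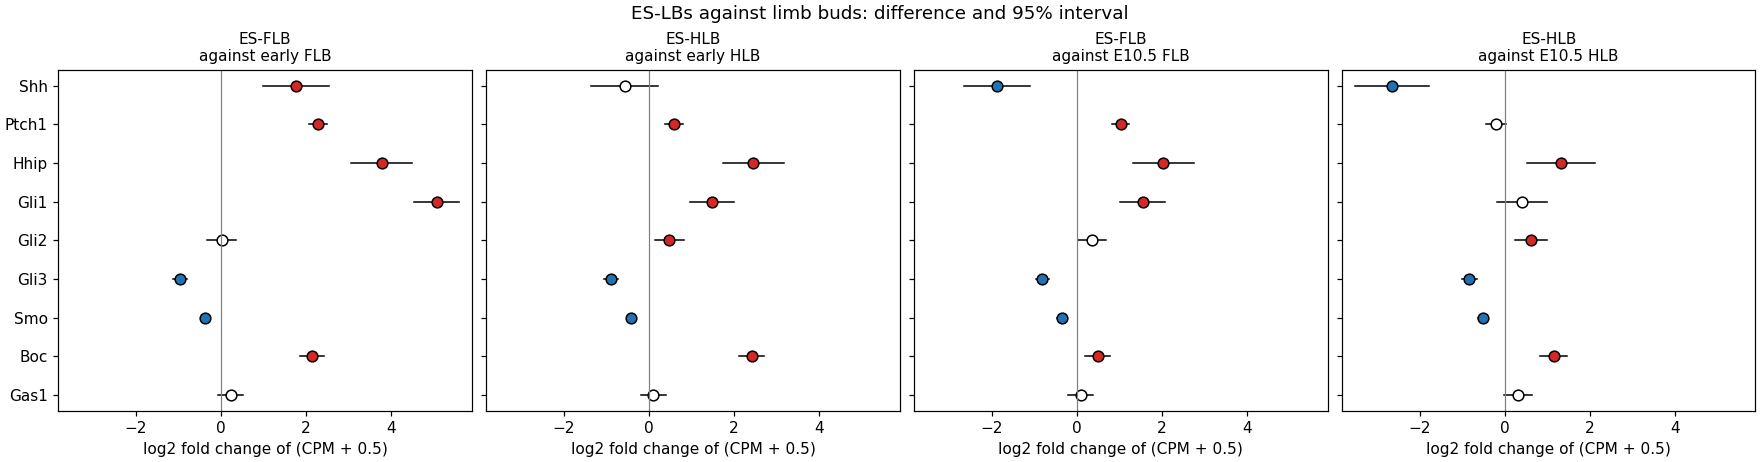
Difference between ES–LBs and limb buds of the same type (horizontal axes, log2 of scaled CPM + 0.5, ES–LB minus limb bud) for the 9 genes, against early and E10.5 limb buds, with points for the fitted difference and bars for its 95% interval. Red points passed as higher in ES–LBs, blue as lower and white did not pass; Gli3 and Smo are blue and Boc and Hhip red in all 4 panels, while Shh is red against early FLBs and blue against both E10.5 limb buds.

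Other ligand genes were looked at beside the low Shh of the ES–LBs. Ihh, which encodes the Hedgehog ligand of cartilage and gut, was 3.89, 0.911 and 2.55 CPM in ES–FLBs (32, 7 and 21 reads) and 2.16, 2.53 and 3.34 CPM in ES–HLBs, and its mean was at most 0.629 CPM in each of the other groups. Of the 7 genes for ligands and their release, Ihh and Disp1 were higher and Dhh, Hhat, Scube1 and Scube3 lower in ES–FLBs than in E10.5 FLBs, and ES–HLBs gave the same 6 calls against E10.5 HLBs. Of all genes, 68.7% passed in the forelimb pair (34.1% higher and 34.5% lower) and 68.5% in the hindlimb pair (34.5% higher and 34% lower). Disp1, which releases the ligand from cells, was higher by 0.43 and 0.64, and Hhat, which adds its lipid, differed by −0.92 and −0.78. Foxa2, a marker of floor plate, notochord and gut endoderm, which are sources of Hedgehog ligands in the embryo, was 3.47 ± 0.324 CPM in ES–FLBs and 3.10 ± 0.373 in ES–HLBs (n = 3 each), with a mean of at most 0.0512 CPM in the limb bud groups and 7.90 ± 1.09 CPM in TB. Of the 7 markers of these tissues, 6 were tested. Against early limb buds, Foxa1, Foxa2 and Spink3 were called higher and Cldn6 lower in both ES–LBs. Of all genes, 38.3% were higher and 38.7% lower in the forelimb pair, and 37.5% and 37.7% in the hindlimb pair. The 7 markers summed to 24.5 to 35.9 CPM in ES–FLBs, 51.1 to 60.5 in ES–HLBs and 26.9 to 64.5 in limb buds, with Noto at 0 in all of these groups. Their part in the readout levels was not tested.

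Genes that Hedgehog is known to induce or pattern in mesenchyme moved both ways. Of 17 such genes, 8 were higher in ES–FLBs than in E10.5 FLBs (Tbx2, Tbx3, Foxf1a, Foxf2, Foxl1, Osr1, Nkx3-2 and Foxd1) and 5 lower (Hoxd11, Hoxd12, Hoxd13, Ccnd1 and Mycn), with a median of 0.97 beside one of 0 over all genes, of which 34.1% were higher and 34.5% lower. Foxd1 stood 4.82 higher (adjusted p = 4.05e-19), Tbx2 2.34 higher (2.99e-11) and Osr1 1.45 higher (1.2e-05), and against E10.5 HLBs the ES–HLBs were likewise higher in Foxd1 (4.78), Tbx2 (2.68) and Osr1 (2.02). Foxf1a, Foxf2 and Foxl1 encode forkhead factors of gut and facial mesenchyme. Foxf2 was 35.1 ± 6.17 CPM in ES–FLBs, 30.2 in BA, 4.99 ± 0.951 in ES–HLBs and 0.456 in E10.5 FLBs. Foxf1a was 23.0 ± 2.61 CPM in ES–FLBs, 18.3 ± 4.99 in BA, 3.61 ± 0.570 in ES–HLBs and 0.165 in E10.5 FLBs, the last under the worth of 3 reads. Foxl1 was 17.6 ± 5.64 CPM in ES–FLBs, 7.53 in BA and 2.83 ± 0.246 in ES–HLBs, with means of at most 0.223 in limb buds. ES–FLBs were above ES–HLBs in Foxf2 (ES–HLB minus ES–FLB −2.70, adjusted p = 2.38e-06), Foxf1a (−2.52, 5.99e-06), Foxl1 (−2.40, 2.5e-09), Grem1 (−1.86, 9.46e-05) and Tbx3 (−1.32, 1.2e-05). In all, 8 of the 17 were lower and 5 higher in ES–HLBs, where 9.04% of all genes were lower and 10.6% higher.

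The posterior limb genes did not move together either. Hoxd13, which marks the distal and posterior limb bud, was 158 ± 6.82 CPM in E10.5 FLBs, 74.8 in E10.5 HLBs, 12.2 ± 2.04 in ES–HLBs and 1.79 ± 0.313 in ES–FLBs, a difference of −6.12 for the forelimb pair (adjusted p = 1.78e-22) and −2.58 for the hindlimb pair (1.56e-12). Grem1, a BMP antagonist that keeps the ridge signal going, stood at 25.7 ± 2.68 CPM in ES–FLBs and 23.0 to 30.9 in E10.5 FLBs, and at 6.71 ± 0.755 in ES–HLBs and 38.6 in E10.5 HLBs. Against early FLBs, ES–FLBs were called higher in Grem1 and Hoxd12 and lower in Hoxd11 and Hoxd13. Against early HLBs, ES–HLBs were called lower in each of these genes. Hand2, by whose reporter the cells were sorted, was 156 ± 13.2 CPM in ES–FLBs beside 149.8 in E10.5 FLBs and 88.9 in early FLBs, and 235 ± 13.1 CPM in ES–HLBs beside 138 in E10.5 HLBs and 109.96 in early HLBs. The apical ectodermal ridge (AER) sends Fgf signals that support Shh, and its 3 markers summed to 1.82 to 1.94 CPM in ES–FLBs and 5.60 to 5.91 in ES–HLBs, beside 30.5 to 87.8 in limb buds. Fgf8, one of them, stood at 20.7 CPM in E10.5 FLBs and 40.5 in E10.5 HLBs, and at 0.08 and 1.00 CPM in ES–FLBs and ES–HLBs. It was worth 3 reads or fewer in every ES–FLB library. Of 5 genes upstream of Shh, Etv4, Etv5, Fgf8 and Fgf4 were lower and none higher in ES–FLBs than in E10.5 FLBs, where 34.5% of all genes were lower. Hand2 was called higher in ES–HLBs than in E10.5 HLBs. Against the early limb buds of their type, both ES–LBs were called higher in Hand2 and Fgf4 and lower in Etv4, Etv5 and Fgf8. Of all genes, 38.3% were higher and 38.7% lower in that forelimb pair, and 37.5% and 37.7% in the hindlimb pair. Fgf4 was worth 3 reads or fewer in every early FLB library. Etv4, Etv5, Fgf8 and Fgf4 were higher in ES–HLBs than in ES–FLBs.

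**Figure D4:**
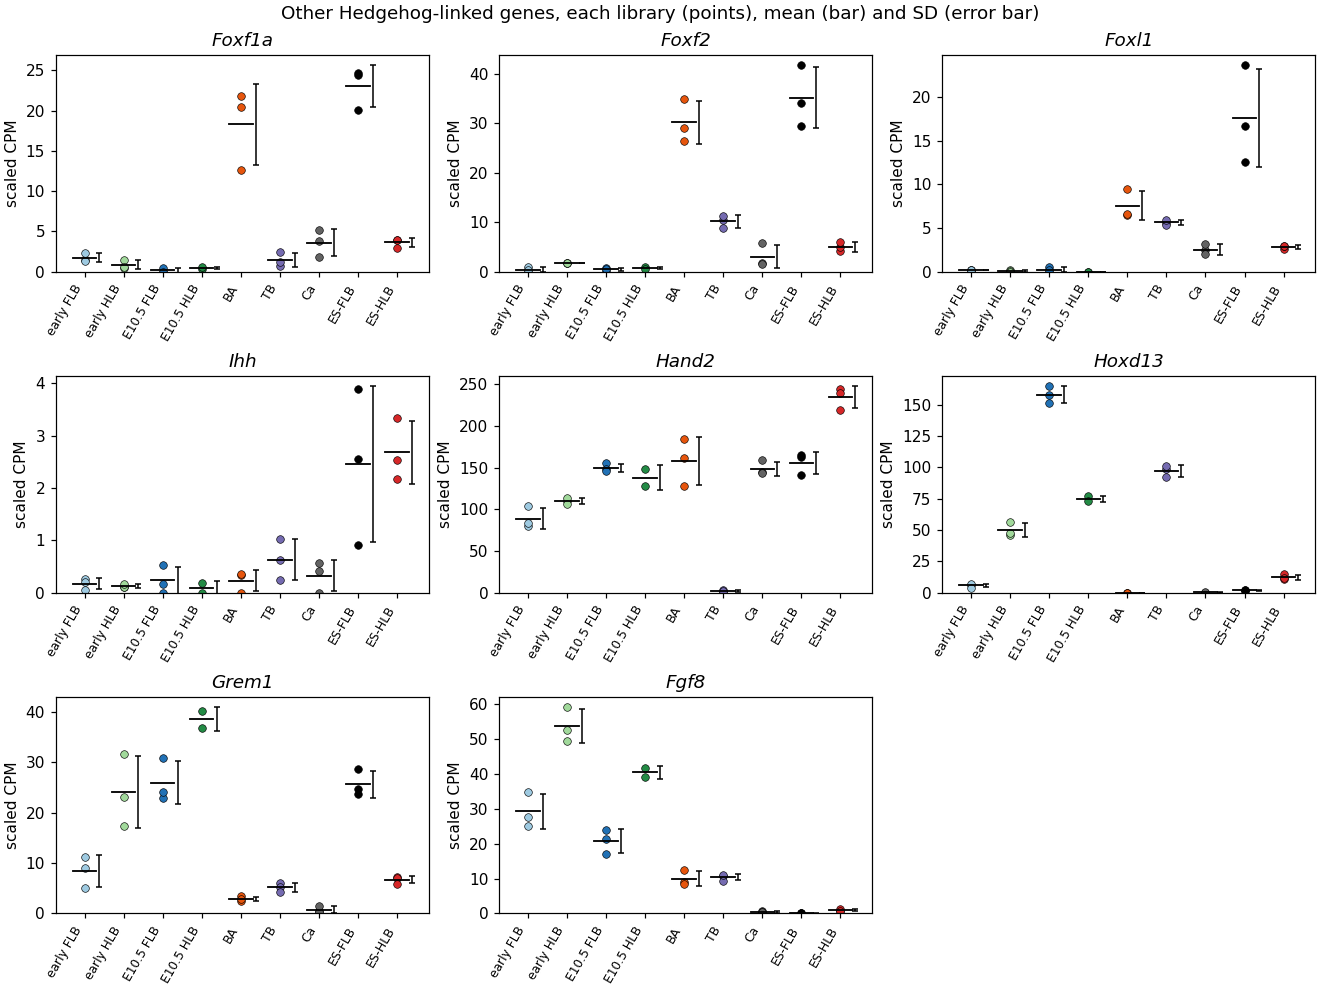
Scaled CPM (vertical axes, linear from 0) of 8 genes linked to the pathway in each of 26 libraries by group, with points for libraries, lines for group means and error bars for the s.d. Foxf1a, Foxf2 and Foxl1 are high in ES–FLBs and branchial arch and low in limb buds, and Hoxd13 is high in E10.5 limb buds and Fgf8 in all limb buds while both are low in ES–FLBs.

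Genes that act between the receptor and the Gli proteins were counted too. Of 14 transduction genes, 9 were higher (Kif7, Gpr161, Evc, Stk36, Iqce, Spop, Prkaca, Prkacb and Gsk3b) and 3 lower (Sufu, Efcab7 and Csnk1a1) in ES–FLBs than in early FLBs, with a median of 0.33, beside 38.3% of all genes higher and 38.7% lower. Evc, which helps Smo signal in the cilium, stood 1.38 higher (adjusted p = 7.76e-12), and Sufu, which holds the Gli proteins back, differed by −0.18 (0.0213). Of 6 cilium genes, 2 were higher and 3 lower, with a median of −0.08. Between ES–HLBs and ES–FLBs, Gsk3b alone of the 14 and none of the 6 passed, where 19.7% of all genes did. Over all 53 pathway genes outside the 9, 27 were higher and 16 lower in ES–FLBs than in early FLBs (76.9% of all genes passed), 22 and 20 than in E10.5 FLBs (68.7%), 26 and 18 in ES–HLBs than in early HLBs (75.2%), and 21 and 20 than in E10.5 HLBs (68.5%). In limb buds 25 rose and 10 fell from early to E10.5 FLBs (59.3% of all genes passed), against 13 and 3 in HLBs (29.3%), and 12 were higher and 7 lower in early HLBs than in early FLBs (18.8%).

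TB, which holds notochord and neural tube, and BA were also compared with the limb buds. Against the E10.5 limb buds, TB was higher in Hhip (1.64, adjusted p = 0.000196), Shh (1.15, 0.00872) and Ptch1 (1.13, 1.11e-10) and lower in Gli3 (−0.90), Boc (−0.38, 0.0159), Gas1 (−0.33, 0.0364) and Smo (−0.23, 0.000111), 7 of 9 genes beside 45.9% of all genes (23% higher and 22.9% lower). Boc lost its call without TB replicate 2 or 3 or E10.5 HLB replicate 3 (adjusted p = 0.0507 to 0.0599), and Gas1 lost it for 6 of the 8 libraries left out (0.0559 to 0.165). Both lost it with CPM as deposited, and Shh lost it with a pseudocount of 0.1 (1.17, adjusted p = 0.0545). The neural tube markers stood at 132 to 142 CPM in TB and at most 0.826 CPM in limb buds, beside these differences, and their part was not tested.

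BA was higher than the limb buds in Ptch1 (0.83, adjusted p = 6.62e-08), Hhip (0.97, 0.0215) and Gli1 (0.60, 0.0475) and lower in Boc (−1.16, 2.57e-07), Gli3 (−0.58, 2.17e-07) and Gas1 (−0.37, 0.0322), 6 of 9 genes beside 32.7% of all genes (16.8% higher and 15.9% lower). Hhip lost its call without BA replicate 3 (adjusted p = 0.0855) or E10.5 HLB replicate 1 (0.0813), Gli1 without any 1 of the 8 libraries (0.0622 to 0.186) and Gas1 for 6 of them (0.0526 to 0.118). Hhip and Gli1 lost it with a pseudocount of 0.1 and Gas1 with CPM as deposited. Shh did not differ detectably (−0.16, 0.769). In Ca all 9 genes were lower, where 76.7% of all genes passed, 38.8% lower and 37.9% higher, from −2.99 for Shh, −2.66 for Gli3, −2.57 for Gli1 and −2.37 for Gli2 to −0.97 for Ptch1. Hhip stood at −1.48 in Ca, and at −0.86 without Ca replicate 1 (adjusted p = 0.000192). In Ca the 5 cardiomyocyte markers summed to 10723 to 12746 CPM, the 4 erythroid markers to 22751 to 33204 and the 6 limb mesenchyme markers to 367 to 459, against at most 4.86, at most 3795 and at least 1462 CPM in the E10.5 limb buds, and their part was not tested.

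Across the 20 embryonic libraries Shh and its readout went together, and the ES–LBs did not lie on the same line. Pearson's r of log2 levels between Shh and Gli1 was 0.94 over the 20 libraries and 0.62 over all 26, between Shh and Ptch1 0.92 and 0.75, and between Shh and Hhip 0.89 and 0.52. Among the readout genes r stayed near its embryonic value, at 0.91 and 0.89 for Ptch1 with Gli1 and 0.94 and 0.90 for Ptch1 with Hhip. Shh with Gli2 gave 0.28 and 0.12, and Gli3 with Smo 0.95 and 0.94. The points share tissues, depth and cell makeup, so these values describe the libraries and were not tested. In the ES–LBs the Shh level is that of the sorted mesenchyme alone, whereas no sorting is named for the embryonic tissues.

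**Figure D5:**
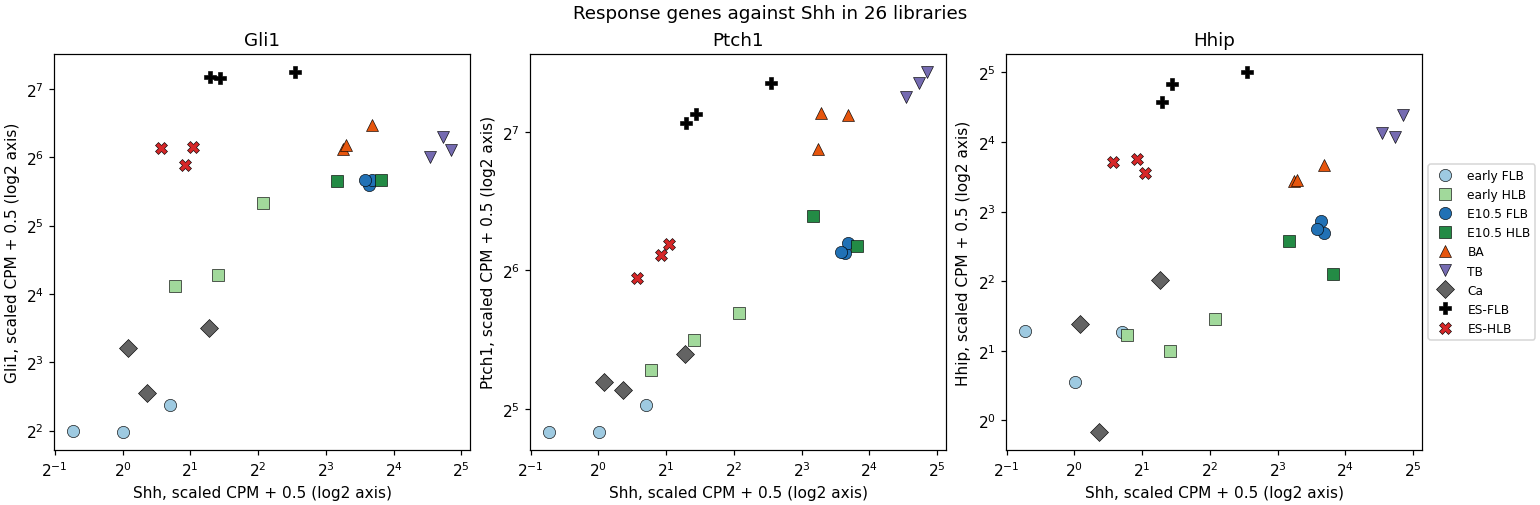
Level of Gli1, Ptch1 and Hhip (vertical axes) against that of Shh (horizontal axes), both as log2 of scaled CPM + 0.5, with 1 point for each of 26 libraries coloured by group. The embryonic libraries rise together, and the ES–FLB libraries lie above them at the same Shh level in each panel.

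The genes whose levels over the 26 libraries were most like those of each member were also listed, by Pearson's r on the log2 scale, as a description. For Gli1 they included Acsf2 (0.934) and Tle1 (0.933), and they were for Hhip Sema6a (0.957), Bcl2l11 (0.944) and Lrrn1 (0.936), and for Ptch1 Megf9 (0.912), Lrrn1 (0.908) and Bcl2l11 (0.907). For Shh they were Gjb6 (0.955), Eif2c1 (0.949) and Gjb2 (0.938). Gli2 was most like Axin2 (0.978), Gli3 like Il17rd (0.982), Smo like Fbxl19 (0.986), Boc like S1pr3 (0.963) and Gas1 like Krt5 (0.951).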

How the data were processed

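RNA-seq was analysed from 27 libraries of 9 groups, of which 26 were used. Per the labels and the methods of the study, stranded polyA libraries were aligned with HISAT2 2.0.4 to mm10, and Cufflinks 2.1.1 and edgeR 3.16.2 are named among the tools. The strand setting of the counting is not given in the sources used here. The authors deposited 1 table of CPM, each library summing to 1000000 over 23279 genes, and raw counts were not used here. Values are spaced by the worth of 1 read, and 93.1% or more of them came out whole within 0.05 reads, which gave depths of 5543756 to 22142302 reads. E10.5 HLB replicate 2 is at 0 for 4216 genes that have 1 CPM or more in the other libraries of its group and was left out.

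CPM were scaled by trimmed means (trims of 30% and 5%, factors 0.891 to 1.08). The 14432 genes that reached 1 CPM in 3 or more libraries were fitted together in limma 3.58.1 (R 4.3.3) on log2(CPM + 0.5), with group as the only term, a variance trend and robust moderation, and Benjamini-Hochberg adjustment over all genes. In a simulation of ES–FLBs against early FLBs with 200 changed genes, 200 were recovered with 8 false calls. The genes changed were not low ones, and all others were simulated alike in every group. The simulation therefore does not cover low genes such as Shh, or a comparison in which 76.9% of genes pass. Same-numbered replicates did not deviate together over 24 pairs of libraries (r from -0.0883 to 0.101), so replicate numbers were not used. Alternatives were CPM as deposited, median-of-ratios scaling, pseudocounts of 0.1 and 1, other filters, neither variance trend nor robust moderation, separate fits, a replicate block, the left-out library kept, and each library left out in turn. Limits of 3 reads cover counting error only. The likeness of genes was Pearson's r over the 26 libraries, and genes among the 3 highest were named. A gene of the pathway lists is not reported here by name. Marker, pathway and member lists were chosen with earlier results of these data known. The genes named are the 9 members, genes of 6 fixed pathway lists, some of the markers and the likeness genes. Values of pathway genes are given mainly for those that passed. Foxa2 was named after its values were seen. Sequences are from RefSeq (GRCm38.p6) and GENCODE (GRCm38).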

Additional observations from a re-analysis of the deposited data

Results flagged for a closer look

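The 5 results that met a rule for a closer look are differences between groups under the same contrast, by a test of the difference itself. The difference between hindlimb and forelimb type was lower in ES–LBs than in early limb buds by log2 differences of -3.59 for Gli1, -2.34 for Shh and -1.69 for Ptch1. In early limb buds the hindlimb type was higher in all 3 genes, whereas in ES–LBs Gli1 and Ptch1 were lower in the hindlimb type and Shh did not pass. The change from early to E10.5 limb buds was smaller in HLBs than in FLBs by -2.45 for Gli1 and -0.46 for Ptch1. The early FLBs and early HLBs enter all 5 values, and their ages differ by a legend of the study though not by the labels, so that type and age cannot be told apart. In the values that include ES–LBs, limb type and treatment with retinoic acid or its antagonist cannot be told apart either. Groups of 2 or 3 libraries are too small for the test of single outlying samples, which was not run.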

How the results depend on the processing

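Over the 9 genes and 14 comparisons, 126 values were recomputed under each alternative, 2142 times in all. Direction and side of the threshold were kept in 2020 of these, 71 lost their call, 50 gained one and 1 was reversed, that of Smo from early to E10.5 FLBs (0.18 with CPM as deposited). The test on read counts planned with edgeR was not run, because the deposited CPM did not give whole reads for nearly all genes in the early limb buds.

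The number of the 9 genes that passed changed by over 1.5 times as follows, and the cause was not tested. For E10.5 HLBs against E10.5 FLBs it went from 0 to 1 with CPM as deposited, to 2 with the left-out library kept and to 2 with only the groups compared in the fit. For ES–HLBs against ES–FLBs it went from 4 to 2 with a pseudocount of 0.1 and to 8 with only the groups compared, and was 2 to 3 with 1 library left out. It was 5 for the limb type interaction with only the groups compared, and 1 for the stage interaction with neither variance trend nor robust moderation. With 1 library left out it was 2 to 4 for early HLBs against early FLBs, 3 to 5 for BA and 1 to 3 for the stage interaction.

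Replicate numbers did not pair the libraries, and with a replicate block the count for E10.5 HLBs against E10.5 FLBs was 1, while over the 126 values 4 gained and 2 lost their call (Gli3 between ES–HLBs and ES–FLBs and Gli1 in BA).

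CPM as deposited moved the median of all genes by 0.22 for ES–FLBs and 0.17 for ES–HLBs against early limb buds, by 0.17 from early to E10.5 FLBs, by 0.11 for ES–HLBs against E10.5 HLBs and by -0.11 for the stage interaction. The share of calls that were higher moved from 45.6% to 66.6% for early to E10.5 FLBs, from 41.2% to 58.4% for early to E10.5 HLBs and from 50.8% to 28.5% for E10.5 HLBs against FLBs. It moved from 43.9% to 60.8% for early HLBs against early FLBs, from 49.8% to 62.7% and 49.9% to 61.3% for ES–FLBs and ES–HLBs against early limb buds, from 51.3% to 64.9% for BA, from 50.04% to 60.1% for TB, and from 56.5% to 44.8% and 54.2% to 26.3% for the limb type and stage interactions. Without E10.5 HLB replicate 1, 1441 genes passed between E10.5 HLBs and FLBs instead of 3069, and the lone library left was assumed to vary like the other groups. Depth limits Shh in early FLBs, where 1 library held 2 reads.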
